A study of Mus musculus with 10 samples.

Results

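Cadherins and protocadherins are the calcium-dependent adhesion proteins of the cell surface, and 85 of their genes were measured in ribosome-bound RNA of the mouse medial habenula. The members are the rows whose symbol is Cdh followed by a number or begins with Pcdh. Of 94 such rows, 85 had at least 10 reads in at least 4 libraries and were kept, out of 16681 genes that met the same minimum. The 9 others were Cdh1, Cdh16, Cdh17, Pcdh12, Pcdhb1, Pcdha4, Pcdha6, Pcdha6-g and Pcdha7. Cdh16 and the 4 alpha genes were listed at 0 in every library, and the remaining 4 never exceeded 26 reads.

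The medial habenula is a paired nucleus of the epithalamus, and its left and right sides were dissected and processed apart. All 10 libraries, 5 per side, were made from adults of the line Chat-TRAP DW167, which carry a Chat-EGFP/Rpl10a transgene: an EGFP-tagged ribosomal protein driven from the gene for choline acetyltransferase, so that tagged ribosomes mark cholinergic neurons. Ribosomes were pulled down with antibodies to EGFP and the RNA bound to them was sequenced (translating ribosome affinity purification, TRAP). Both groups thus share the transgene, the age class and the pull-down, and by their labels the groups differ in side. Replicates 2 to 5 shared a sequencing lane across the sides, whereas replicate 1 was on lane 7 for the left and lane 3 for the right. Libraries of unpurified tissue RNA were not used here, and enrichment by the pull-down was not measured. Whether each library is a separate animal is not stated in the labels, and p-values below measure only the spread between these libraries, which may be technical.

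Classical cadherins bind the same or a similar cadherin on the next cell through their outer repeats, and hold the actin skeleton through beta- and alpha-catenin inside the cell. Type I cadherins give strong junctions, and type II cadherins are expressed in combinations that differ between brain nuclei. The delta protocadherins, which stand as single genes, bind weakly, and some of them recruit the actin-regulating WAVE complex. The clustered alpha, beta and gamma protocadherins are instead chosen in varied combinations in single neurons. They give each cell an identity by which its own branches recognise each other.

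The RNA content of the libraries was not uniform within a side. Total gene counts lay between 42488448 and 67942836 reads. In replicates 1 and 5 of both sides, 4 libraries in all, transcripts of glia and of neighbouring nuclei were scarce. Summed over 15 astrocyte markers, these libraries held 127.5 to 138.1 CPM (counts per 1000000 gene reads) and the other 6 held 473.1 to 1898 CPM. Over 12 oligodendrocyte markers the ranges were 105.1 to 118.5 and 415.3 to 1713 CPM, and over 7 markers of thalamic neurons they were 223.9 to 258.6 and 760.6 to 1899 CPM. All 4 of these libraries lay below the other 6 for 14 of the 15 astrocyte, 12 of the 12 oligodendrocyte and 7 of the 7 thalamic markers, for 4 of 4 markers of the lateral habenula (70.11 to 92.12 against 215.7 to 678.6 CPM) and for 7 of 10 of microglia (6.77 to 8.498 against 14.39 to 37.36 CPM). No astrocyte, oligodendrocyte or lateral habenular marker was at 0 in any library, while Gbx2 of the thalamic list, Aif1 of microglia and Cldn5 of endothelium had no read in some. The markers of medial habenular neurons, Chat among them, ran the other way in sum, and 9 of 11 did so singly in all 4 libraries, with a summed 10555.7 to 11029.5 CPM against 5193 to 9060 CPM in the other 6. Replicates 1 and 5 of a side were also far more alike than other pairs of that side: the chi-square statistic per degree of freedom, over genes with 100 to 500 reads, was 2.165 for the left pair and 1.322 for the right pair, against 6.723 to 57.08 for the other same-side pairs. The labels call them separate replicates and they are counted as such, with results given for both sets of libraries.

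The promoters of members toward either end of this split are shown first, because the levels of these genes across the libraries carry most of what follows. They were taken by a rule from the 26 single-gene members that averaged at least 1 CPM and lie on other chromosomes than the clustered genes. Of these, 20 had an entry in the RefSeq promoter table, Cdh3 and Cdh19 not among them, and the rule took from the 20 the 3 with the lowest and the 3 with the highest ratio of the median of the other 6 libraries to the median of replicates 1 and 5. Each is the 250 bases before the RefSeq start on build GRCm38.p6, written 5′ to 3′ on the gene's strand. In the GENCODE annotation the windows of Cdh22 and Pcdh7 overlap the first bases of the gene, and that of Cdh18 lies well inside the gene, before a downstream start. Capitals mark GGGCGG on either strand, the GC box bound by Sp-family factors. Cdh22 (chr2:165234738-165234987, minus strand), Pcdh20 (chr14:88471397-88471646, minus strand) and Cdh8 (chr8:99416472-99416721, minus strand) had the lowest ratios.
Cdh22: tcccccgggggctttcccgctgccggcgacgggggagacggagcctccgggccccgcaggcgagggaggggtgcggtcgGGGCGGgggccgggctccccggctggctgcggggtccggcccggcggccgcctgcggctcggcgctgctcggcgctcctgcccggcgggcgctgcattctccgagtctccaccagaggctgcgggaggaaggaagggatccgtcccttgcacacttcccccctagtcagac
Pcdh20: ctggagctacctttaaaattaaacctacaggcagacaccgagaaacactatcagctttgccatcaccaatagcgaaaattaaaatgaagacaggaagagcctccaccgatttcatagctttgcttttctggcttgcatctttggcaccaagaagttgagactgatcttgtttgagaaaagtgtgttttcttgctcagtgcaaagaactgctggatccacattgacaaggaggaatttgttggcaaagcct
Cdh8: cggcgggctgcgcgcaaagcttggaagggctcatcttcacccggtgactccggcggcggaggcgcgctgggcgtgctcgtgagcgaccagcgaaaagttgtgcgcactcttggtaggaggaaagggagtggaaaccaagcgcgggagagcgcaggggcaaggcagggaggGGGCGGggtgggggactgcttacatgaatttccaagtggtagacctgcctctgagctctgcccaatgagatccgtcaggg
Pcdh7 (chr5:57717831-57718080, plus strand), Cdh18 (chr15:23036213-23036462, plus strand) and Pcdh19 (chrX:133688994-133689243, minus strand) had the highest.
Pcdh7: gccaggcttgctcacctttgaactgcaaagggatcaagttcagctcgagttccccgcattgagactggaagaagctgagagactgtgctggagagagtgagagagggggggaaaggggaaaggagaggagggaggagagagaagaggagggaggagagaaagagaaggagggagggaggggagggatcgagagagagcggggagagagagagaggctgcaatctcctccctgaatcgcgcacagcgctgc
Cdh18: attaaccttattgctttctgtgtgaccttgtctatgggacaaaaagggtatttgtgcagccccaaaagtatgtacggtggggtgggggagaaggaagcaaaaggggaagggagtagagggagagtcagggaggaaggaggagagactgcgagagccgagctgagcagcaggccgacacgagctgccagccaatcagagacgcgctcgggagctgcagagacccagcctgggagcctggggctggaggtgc
Pcdh19: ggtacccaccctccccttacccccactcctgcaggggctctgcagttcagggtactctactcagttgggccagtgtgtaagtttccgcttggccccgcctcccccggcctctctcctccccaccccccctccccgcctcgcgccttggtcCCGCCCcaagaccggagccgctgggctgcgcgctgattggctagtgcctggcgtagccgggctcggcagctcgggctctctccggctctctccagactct
The GC content of these windows was 77.6% for Cdh22, 42.4% for Pcdh20 and 64.4% for Cdh8, and 58.4% for Pcdh7, 58% for Cdh18 and 69.2% for Pcdh19, beside a median of 52.4% over all 32536 windows of the table. CG dinucleotides numbered 30, 3 and 20 in the first 3 and 7, 8 and 16 in the last 3, beside a median of 6. One GGGCGG stood in each of Cdh22, Cdh8 and Pcdh19, the last on the opposite strand, and in 32.97% of all windows. TAATTA, a core that homeodomain factors bind, stood in none of the 6 and in 4.841% of all windows. These matches describe the letters only, and both ends of the split held windows with and without a GC box.

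The most abundant members per length were a delta-1 protocadherin and a type II cadherin. Levels between genes are given as CPM per kb of exonic bases that no other gene shares, a level that 81 of the 85 had. Averaged over the 10 libraries, Pcdh9 stood at 27.6, Cdh8 at 16.4, Pcdhgc3 at 14.4, Pcdh1 at 13.5 and Cdh3 at 8.21 CPM per kb. Pcdhac2, Pcdhga3, Cdh2, Cdh22 and Pcdh17 followed at 6.98, 6.90, 6.58, 5.79 and 5.34. In replicates 1 and 5 alone the order was Pcdh9 at 20.2, Cdh8 at 18.2, Pcdhgc3 at 12.1, Cdh3 at 10.5, Pcdh1 at 6.96 and Cdh22 at 6.95 CPM per kb, so that Cdh3 and Cdh22 stood higher in the order than over all libraries. Over all exonic bases, shared ones included, Pcdhgc3 came to 4.78 and Pcdhac2 to 3.59 CPM per kb, and the genes of the alpha and gamma clusters share their last exons, where reads can be lost as ambiguous. Part of Pcdhgc3 is also overlapped by an antisense gene, and with only same-strand sharing left out it stood at 7.78 CPM per kb, below Pcdh1 and Cdh3.

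Across the libraries, many members were at their lowest where glial and thalamic transcripts were scarce. In 43 of 85 members all 4 libraries of replicates 1 and 5 lay below the other 6, or 50.6%, beside 24.4% of all 16681 genes. Only Cdh3 and Pcdh20 lay above them, or 2.35%, beside 22.4% of all genes, and 40 overlapped. The median member had a ratio of 1.677 between the medians of the other 6 libraries and of replicates 1 and 5, beside 1.009 over all genes. The 31 members that stand as single genes spread from 0.5639 to 19.27 and had a median of 2.999, with 19 lower, 2 higher and 10 overlapping. Right replicate 2 had the lowest marker levels among the 6, and without it 57 members lay below, beside 27.9% of all genes. In bulk RNA, fewer cells of a type and less RNA per cell cannot be told apart, and the part that RNA of other cell types had in these levels was not tested.

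**Figure D1:**
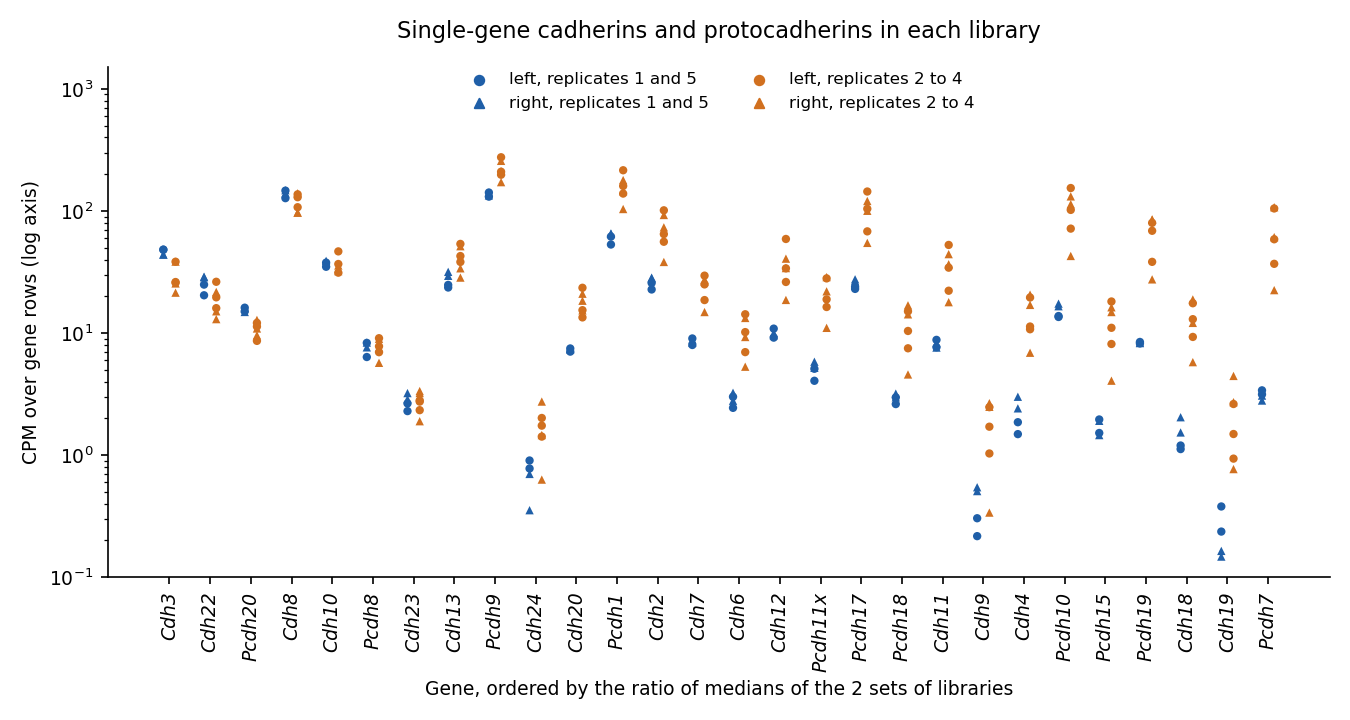
CPM over gene rows (log axis) in each library, for each single-gene cadherin and protocadherin that averaged at least 1 CPM. Circles are left and triangles right libraries, coloured by replicates 1 and 5 against replicates 2 to 4. Genes run from the lowest to the highest ratio of medians. Cdh3, at a ratio of 0.5639, opens the order and Pcdh7, at 19.27, closes it. Cdh5, Cdh15 and Cdh26, which averaged under 1 CPM, are not shown.

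Among type I cadherins, Cdh3 (P-cadherin; chr8:106510891-106557297, plus strand) was high in replicates 1 and 5 and Cdh2 was low there. Cdh3 stood at 48.2, 38.4, 26.2, 25.8 and 48.1 CPM in left replicates 1 to 5 and at 43.9, 38.4, 21.4, 25.5 and 44.0 CPM in right replicates 1 to 5. Cdh2, the N-cadherin of neurons and glia, stood at 25.7, 55.9, 64.6, 101.2 and 22.7 CPM in the left libraries and 28.4, 38.2, 92.7, 73.4 and 28.0 CPM in the right ones. Replicates 1 and 5 were thus the highest libraries for Cdh3 and the lowest for Cdh2 on both sides. Cdh4 (R-cadherin) followed Cdh2 at 1.48, 10.7, 11.3, 19.5 and 1.86 CPM in the left libraries and 2.41, 6.89, 20.6, 17.0 and 3.003 CPM in the right ones. Cdh15 (M-cadherin of muscle) was kept at a mean of 0.456 CPM on the left, and Cdh1, the epithelial E-cadherin, was not kept.

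Among the 13 type II cadherins, which mark neuronal subgroups, Cdh8, Cdh10 and Cdh22 had medians in replicates 1 and 5 not below those elsewhere. Another 8 of the 13 were lower there in all 4 libraries, beside 24.4% of all genes. Cdh8 (chr8:99024471-99416471, minus strand) stood at 146.7, 136.8, 107.3, 129.6 and 127.3 CPM in the left libraries and 147.8, 139.6, 96.8, 97.0 and 139.6 CPM in the right ones. Cdh22 stood at 20.4, 26.3, 19.6, 15.98 and 24.9 CPM in the left libraries and 28.6, 21.7, 15.1, 13.0 and 28.9 CPM in the right ones. Cdh10 varied least of these, between 31.2 and 46.6 CPM over all 10 libraries. For these 3 genes the libraries of both sets overlapped, with ratios of medians of 0.8276, 0.6644 and 0.9161.

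The other type II members were led by Cdh12, at 10.9, 26.2, 33.9, 58.9 and 9.16 CPM in the left libraries and 9.99, 18.7, 40.7, 34.0 and 9.58 CPM in the right ones. Cdh18 had one of the widest ranges of any member, with 1.197, 9.28, 13.0, 17.5 and 1.12 CPM in the left libraries and 2.04, 5.77, 18.8, 12.1 and 1.53 CPM in the right ones. Cdh19, known from Schwann cells and other glia, stood at 0.236, 0.935, 1.49, 2.62 and 0.379 CPM in the left libraries and 0.164, 0.767, 2.71, 4.45 and 0.147 CPM in the right ones. Cdh12, Cdh18 and Cdh19 had no library of replicates 1 and 5 within the range of the other 6, and the ratios of medians were 3.468, 9.193 and 10.27. Cdh5 (VE-cadherin), the junction cadherin of endothelium, had no read in left replicates 1 and 5, stood at 0.149 and 0.250 CPM in those of the right, and ranged from 0.691 to 2.65 CPM elsewhere. The summed level of 13 markers of endothelium and pericytes was 14.43 to 15.61 CPM in replicates 1 and 5 and 26.5 to 50.03 CPM in the other 6. Of the 13, 10 were lower in all 4 libraries of replicates 1 and 5 and 1 was higher. The part of such cells in the levels of Cdh5 was not tested.

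The 3 atypical members overlapped between both sets of libraries. Cdh13 (T-cadherin), which is held in the membrane by a lipid anchor and has no catenin-binding tail, stood at 23.6, 42.7, 38.2, 53.7 and 24.8 CPM in the left libraries and 31.7, 28.4, 51.4, 33.9 and 29.4 CPM in the right ones. Cdh23, a component of the tip links of hair cells, stood at 2.65, 2.80, 2.33, 2.74 and 2.29 CPM in the left libraries and 3.22, 3.35, 1.89, 3.22 and 2.87 CPM in the right ones. Its ratio of medians was 1.005, and no other kept member except Pcdhgb6 at 1.032 and Pcdh8 at 0.9627 lay within 0.05 of an equal level. Cdh26 was near the limit of detection, at 0.354, 0.269, 0.118, 0.442 and 0.234 CPM in the left libraries and 0.328, 0.721, 0.379, 0.377 and 0.412 CPM in the right ones.

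All 4 delta-1 protocadherins were lower in replicates 1 and 5, beside 24.4% of all genes, but by unequal amounts. Pcdh9 (chr14:93013410-93890679, minus strand), the most abundant member, stood at 141.6, 198.1, 209.6, 275.4 and 131.0 CPM in the left libraries and 141.1, 172.2, 257.3, 211.9 and 134.0 CPM in the right ones. Pcdh1 stood at 53.1, 138.8, 160.2, 215.5 and 61.6 CPM in the left libraries and 64.8, 103.7, 179.1, 145.0 and 65.4 CPM in the right ones. Both stayed above 50 CPM in every library. Pcdh7 (chr5:57717967-58133230, plus strand) did not: it stood at 3.39, 36.9, 58.6, 104.8 and 3.14 CPM in the left libraries and 3.07, 22.4, 107.3, 61.0 and 2.80 CPM in the right ones. Its highest library was 38.37 times its lowest, the widest range of any member averaging 1 CPM or more, and part of its exons overlaps an antisense gene, which makes its count uncertain to that extent. Pcdh11x, the X-linked member, ranged from 4.06 to 5.81 CPM in replicates 1 and 5 and from 11.0 to 28.7 CPM in the other 6.

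Of the 5 delta-2 protocadherins, 4 were lower in replicates 1 and 5, beside 24.4% of all genes, and Pcdh8 overlapped. The 5 include Pcdh19, the gene of a female-limited human epilepsy. Pcdh17 (chr14:84443563-84539002, plus strand) stood at 23.0, 68.0, 104.2, 144.3 and 23.9 CPM in the left libraries and 26.6, 54.7, 120.7, 100.3 and 27.5 CPM in the right ones. Pcdh10 (chr3:45378398-45435623, plus strand) stood at 13.8, 71.7, 102.0, 154.1 and 13.5 CPM in the left libraries and 17.4, 42.8, 131.6, 113.6 and 16.6 CPM in the right ones. Each of these genes was lowest in the same 4 libraries and intermediate in right replicate 2. Pcdh19 (chrX:133582860-133688987, minus strand) stood at 8.21, 38.3, 68.8, 79.9 and 8.44 CPM in the left libraries and 8.27, 27.5, 85.3, 84.5 and 8.35 CPM in the right ones. Pcdh8, known in the rat as the activity-induced arcadlin, kept between 5.70 and 9.06 CPM in all 10 libraries.

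The remaining single protocadherins went opposite ways. Pcdh20 stood at 16.1, 12.1, 8.62, 11.3 and 15.1 CPM in the left libraries and 15.9, 12.8, 10.9, 9.58 and 14.9 CPM in the right ones. Pcdh15, the partner of Cdh23 in hair-cell tip links and also known from oligodendrocyte precursors, stood at 1.956, 8.13, 11.0, 18.1 and 1.52 CPM in the left libraries and 1.91, 4.07, 16.2, 14.8 and 1.46 CPM in the right ones. The 6 markers of oligodendrocyte precursors summed to 7.451 to 8.818 CPM in replicates 1 and 5 and to 33.68 to 119.2 CPM in the other 6, with all 6 lower in replicates 1 and 5. Their part in the levels of Pcdh15 was not tested.

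**Figure D2:**
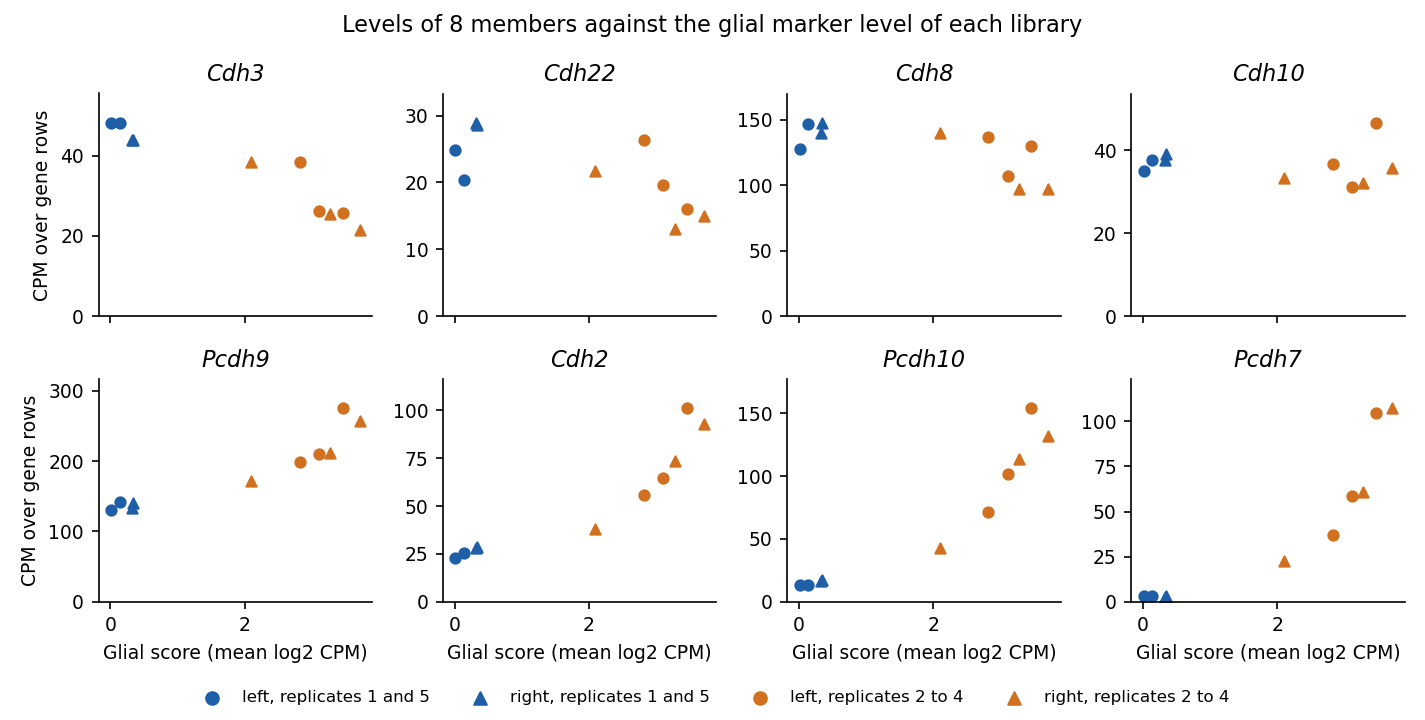
CPM over gene rows of 8 members in each library against the glial score of that library, the mean log2 CPM of astrocyte, oligodendrocyte, microglial and endothelial markers; circles are left and triangles right libraries. Replicates 1 and 5 of both sides lie at scores of 0.0121 to 0.339 and the other 6 libraries at 2.10 to 3.71.

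The clustered protocadherins lie side by side on chromosome 18. Of the 54 kept, 24 lay lower in replicates 1 and 5, none lay higher and 30 overlapped. Of all genes, 24.4% lay lower and 22.4% higher. The median ratio was 1.523, beside 2.999 for the single genes, and this difference was not tested. In the alpha cluster, 12 genes were kept and 4 lay lower, beside the same 24.4% of all genes. Pcdhac2, a C-type gene that neurons use without the random choice made among the other alpha genes, stood at 16.3, 25.4, 22.5, 28.6 and 15.2 CPM in the left libraries and 19.9, 22.5, 23.4, 19.1 and 18.6 CPM in the right ones. Pcdha12 stood at 2.09, 2.06, 3.48, 3.59 and 2.62 CPM in the left libraries and 2.28, 1.58, 3.71, 3.15 and 2.21 CPM in the right ones. Pcdha5 stood at 1.08, 3.26, 2.94, 3.20 and 1.44 CPM in the left libraries and 2.28, 1.75, 3.88, 4.19 and 2.12 CPM in the right ones. Pcdhac2 was thus the leading alpha transcript in all 10 libraries, at 6.98 CPM per kb beside 1.38 for Pcdha12 and 1.11 for Pcdha5, and the 3 genes overlapped between both sets of libraries.

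The beta genes are single exons that share few bases with their neighbours. Of 20 kept, 8 lay lower in replicates 1 and 5, beside 24.4% of all genes, and the median ratio was 1.617. Pcdhb17 stood at 14.01, 21.6, 24.9, 33.0 and 14.5 CPM in the left libraries and 16.1, 18.8, 27.6, 21.4 and 15.4 CPM in the right ones. Pcdhb16 stood at 13.6, 19.1, 34.4, 42.9 and 11.6 CPM in the left libraries and 13.6, 17.8, 32.4, 31.3 and 13.3 CPM in the right ones. Both were lowest in the same 4 libraries, while Pcdhb12 overlapped, at 4.21, 3.41, 4.56, 4.83 and 3.16 CPM in the left libraries and 3.56, 1.64, 4.70, 5.81 and 3.05 CPM in the right ones. Pcdhb12 is overlapped over many of its bases by an antisense gene, so that its level per kb of 3.52 rests on a short stretch; with only same-strand sharing left out it was 1.28.

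In the gamma cluster, whose products are needed for the survival of many neurons in mice, all 22 genes were kept. Of these, 12 lay lower in replicates 1 and 5, beside 24.4% of all genes. Pcdhgc3, a C-type gene, stood at 17.6, 33.9, 26.1, 30.3 and 21.2 CPM in the left libraries and 23.9, 22.8, 29.7, 32.3 and 25.4 CPM in the right ones. Pcdhga3 stood at 14.4, 18.5, 18.8, 22.0 and 13.3 CPM in the left libraries and 16.3, 17.2, 21.2, 22.2 and 15.8 CPM in the right ones. Pcdhga11 stood at 4.42, 6.23, 5.56, 8.70 and 3.45 CPM in the left libraries and 5.30, 5.94, 7.44, 8.54 and 5.004 CPM in the right ones. Pcdhga3 and Pcdhga11 lay lower in replicates 1 and 5 without overlap, by ratios of 1.324 and 1.45, and Pcdhgc3 overlapped.

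The 3 C-type genes of the gamma cluster differed from each other. Pcdhgc4 (which supports neuronal survival in mice) ranged from 10.9 to 12.3 CPM in replicates 1 and 5 and from 12.1 to 18.5 CPM in the other 6. Pcdhgc5 stood at 1.99, 9.00, 10.2, 14.2 and 2.44 CPM in the left libraries and 4.37, 5.69, 15.7, 17.3 and 4.27 CPM in the right ones. Its ratio of 3.647 was the largest among the clustered genes, beside 1.268 for Pcdhgc4 and 1.328 for Pcdhgc3. Pcdhgb8 was low throughout, at 0.809, 2.96, 1.93, 1.86 and 0.740 CPM in the left libraries and 0.804, 1.35, 1.41, 1.51 and 0.765 CPM in the right ones.

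**Figure D3:**
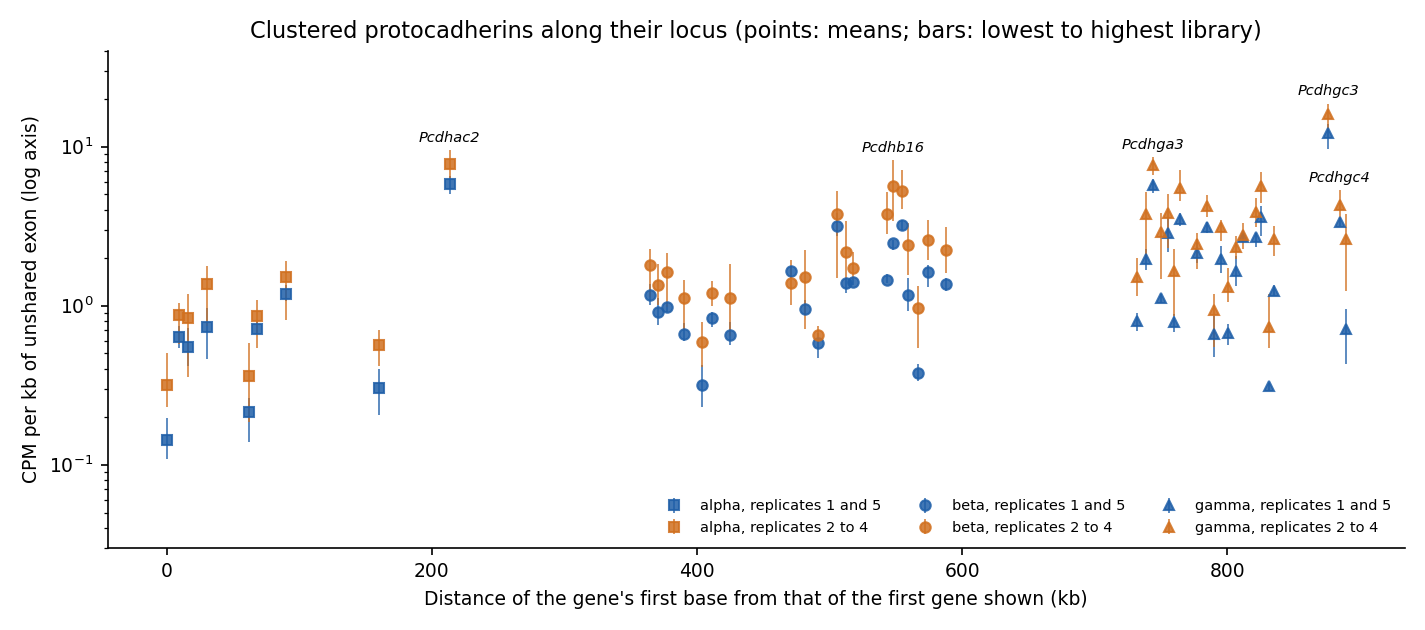
CPM per kb of unshared exon (log axis) of the clustered protocadherins against the distance in kb of each gene's first base from that of the first gene shown; points are means and bars run from the lowest to the highest library, for replicates 1 and 5 and for the other 6 libraries. The alpha genes come first and the gamma genes last, and the C-type genes Pcdhac2 (6.98 CPM per kb over all libraries) and Pcdhgc3 (14.4, or 7.78 with only same-strand sharing left out) stand above the other genes of their clusters.

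Left and right were compared to find transcripts that differ between the sides of the medial habenula, and no cadherin or protocadherin passed its test. The quasi-likelihood test of edgeR with Benjamini-Hochberg adjustment over 16250 genes called 0 of 85 members and 0 genes in all (0%), and 0 members had an unadjusted p under 0.05, beside 90 genes in all (0.554%). DESeq2 also called 0 genes, with 141 at an unadjusted p under 0.05, none of them a member. Log2 fold changes, left minus right, ran from -0.66 to 0.48, with 54 above 0 and 31 below, and their median was 0.03 beside -0.01 over all genes. This split rested on single libraries: 22 members were above 0 without left replicate 4 (median -0.14) and 72 without right replicate 4 (median 0.15), with 31 to 70 above 0 when any other library was left out. Of the members, 83 lay within 0.5 of 0, and for 49 the whole 95% interval lay within 1 of 0, so that for the other 36 a change of 2-fold was not outside the interval.

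The abundant members were measured at similar means on both sides. Cdh8 stood at 129.5 ± 14.5 CPM in the left libraries and 124.1 ± 25.1 CPM in the right ones (SD, n = 5), a log2 fold change of 0.04 with a 95% interval of -0.26 to 0.35. Pcdh9 stood at 191.1 ± 58.2 and 183.3 ± 51.6 CPM (0.03, -0.52 to 0.58), and Cdh3 at 37.3 ± 11.1 and 34.6 ± 10.6 CPM (0.09, -0.48 to 0.67). Pcdh17 had a wider interval, at 72.7 ± 52.4 and 66.0 ± 42.8 CPM (0.10, -1.26 to 1.46). In all 4 genes the sides overlapped, and the width of the interval followed the spread between replicates of one side.

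The means of several members at lower levels were also close, while those of Cdh26 and Pcdhgb8 lay further apart. Cdh13 stood at 36.6 ± 12.7 CPM in the left libraries and 35.0 ± 9.43 CPM in the right ones (0.04, -0.54 to 0.61) and Pcdh20 at 12.6 ± 3.01 and 12.8 ± 2.65 CPM (-0.04, -0.47 to 0.39). Among the clustered genes Pcdhac2 stood at 21.6 ± 5.77 and 20.7 ± 2.14 CPM (0.04, -0.35 to 0.43), Pcdhb17 at 21.6 ± 7.88 and 19.9 ± 4.92 CPM (0.09, -0.49 to 0.68) and Pcdhgc3 at 25.8 ± 6.59 and 26.8 ± 4.04 CPM (-0.08, -0.51 to 0.35). The sign of several of these small differences turned when single libraries were left out. The smallest unadjusted p of the edgeR test belonged to Cdh26, at 0.284 ± 0.122 CPM in the left libraries and 0.443 ± 0.158 CPM in the right ones (-0.66, -1.54 to 0.22, unadjusted p = 0.125, adjusted p = 1; -0.44 without right replicate 2). Pcdhgb8 came next, at 1.66 ± 0.919 and 1.17 ± 0.354 CPM (0.48, -0.44 to 1.40, unadjusted p = 0.272, adjusted p = 1 by edgeR; 0.17 without left replicate 2), and then Cdh23, at 2.56 ± 0.237 and 2.91 ± 0.595 CPM (-0.20, -0.61 to 0.20, unadjusted p = 0.289, adjusted p = 1 by edgeR).

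**Figure D4:**
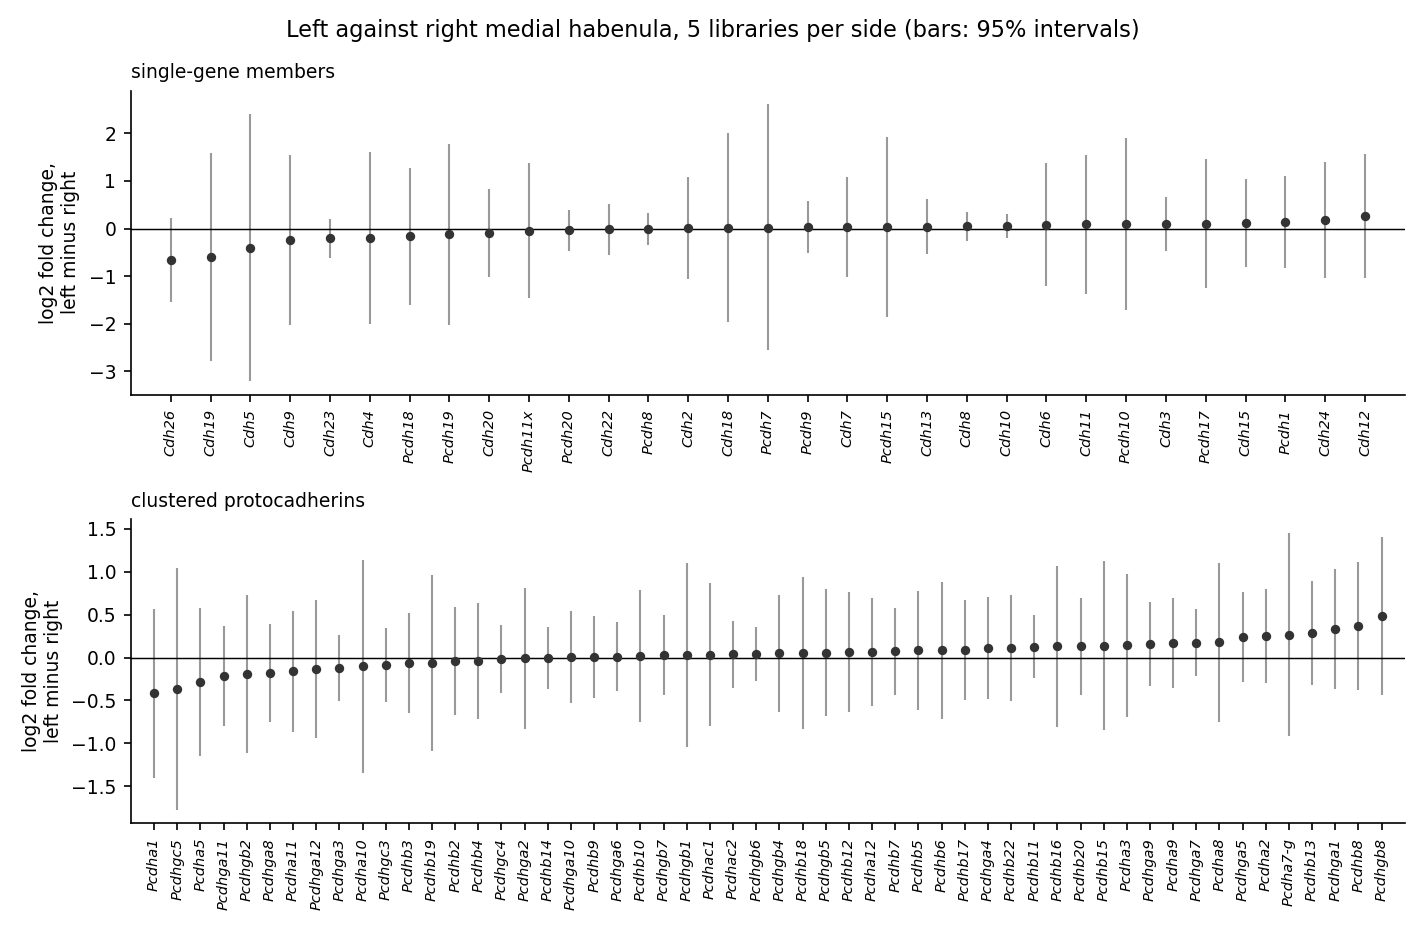
Log2 fold change, left minus right, of every kept member with its 95% interval from the edgeR fit over 5 libraries per side. Every interval includes 0, and those of Pcdh7 and Pcdh10 are wider than those of Cdh8 and Cdh10.

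Within replicates 1 and 5, where the libraries of a side were nearly alike, differences between the left and right libraries became callable. The same test on these 4 libraries called 1992 of 15569 genes (12.8%), with 893 higher on the left (5.74%) and 1099 higher on the right (7.06%). Of 84 members tested it called 18 (21.4%), with 15 higher on the right and 3 higher on the left. The gamma cluster gave 8 of them out of 22. Pcdhgc5, at 1.99 and 2.44 CPM in the left libraries and 4.37 and 4.27 CPM in the right ones, had a log2 fold change of -0.965 (adjusted p = 0.00857 by edgeR). Pcdhga9 was higher on the left, at 6.69 and 7.07 CPM beside 4.59 and 4.64 CPM (0.58, adjusted p = 0.0111 by edgeR), as were Pcdhb18 (0.54) and Pcdhga6 (0.38).

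The single genes called there were all higher on the right. They were Cdh2 (-0.22), Cdh4 (-0.70), Cdh9 (-1), Cdh13 (-0.34) and Pcdh10 (-0.31), where the values are log2 fold changes, left minus right. Cdh9 was near the read minimum, with 12 reads in its lowest library (adjusted p = 0.0479 by edgeR). It stood at 0.3035 and 0.2165 CPM in left replicates 1 and 5 and at 0.5065 and 0.5446 CPM in the right ones. The replicates 2 to 4 of each side, fitted alone, called 0 members by edgeR, and 5 of the 18 had the same sign there: Cdh4, Cdh9, Pcdha5, Pcdhga8 and Pcdhgc5. The 2 libraries of a side in this set differed so little that they may come from the same RNA, and the test then compares single preparations rather than sides. Replicate 1 also differed in lane between the sides, and the part of the lane was not tested.

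**Figure D5:**
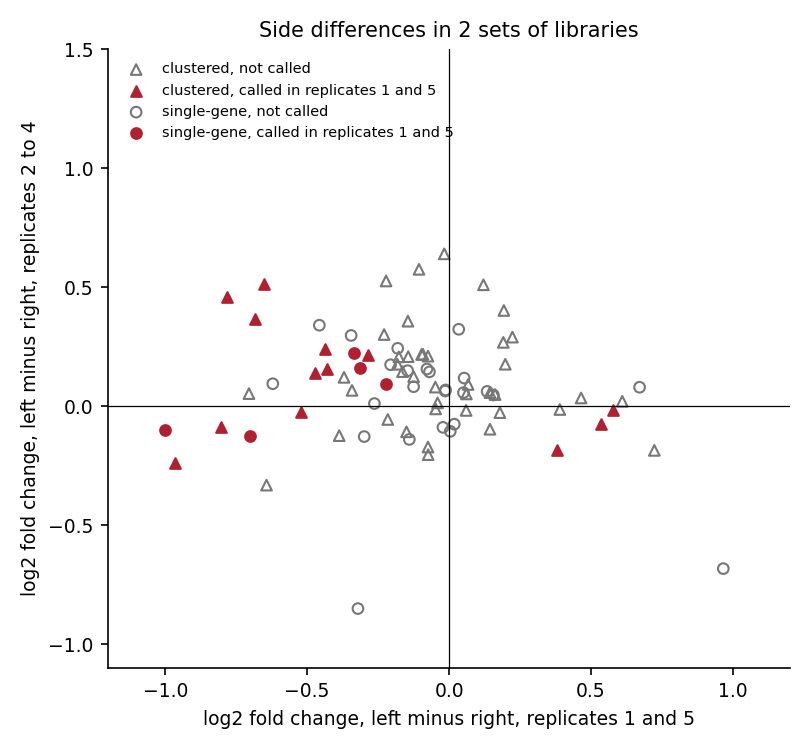
Log2 fold change, left minus right, of each member in replicates 1 and 5 (x axis) and in replicates 2 to 4 (y axis), with clustered and single genes as separate symbols and the 18 members called in replicates 1 and 5 outlined in red. Of those 18, 5 have the same sign on both axes.

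Among genes that work with cadherins, none passed the test between the sides. Of 50 kept genes in 6 lists, edgeR called 0, and 1 had an unadjusted p under 0.05 (Celsr1, a seven-pass cadherin of planar polarity, at a log2 fold change of -0.53, unadjusted p = 0.0466, adjusted p = 1). In replicates 1 and 5 alone it called 6 of the 50, beside 12.8% of all genes. Across the libraries, 8 of 14 catenins and adherens partners were lower in all of replicates 1 and 5 and 2 were higher. Of all genes, 24.4% were lower and 22.4% higher. Ctnnb1 (beta-catenin), which is also a signal carrier of the Wnt pathway, was one of the 2 higher partners, at 788.7 to 875.1 CPM in replicates 1 and 5 and 472.2 to 778.2 CPM in the other 6. Ctnnd2 (delta-catenin of neurons) ran with the lower group, at 255.8 to 268.4 and 343.8 to 466.5 CPM.

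Of the 9 genes of the WAVE complex, 3 were lower in replicates 1 and 5 and 1 higher, beside 24.4% and 22.4% of all genes. Nckap1 overlapped, at 843.6 to 963.1 CPM in replicates 1 and 5 and 904.4 to 1153 CPM in the other 6, and Cyfip2 was lower, at 597.2 to 625.8 and 980.5 to 1438 CPM. Of the kinases bound by clustered protocadherins, Fyn and Ptk2b (Pyk2) were lower and Ptk2 (focal adhesion kinase) overlapped. Ptk2b had the largest ratio of them at 14.64, from 2.99 to 3.45 CPM in replicates 1 and 5 to 20.4 to 58.7 CPM in the other 6. Adam10, a protease that cuts cadherins, overlapped, with 26.1 to 29.8 CPM in replicates 1 and 5 beside 26.9 to 35.6 CPM elsewhere.

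Of the 9 regulators of the clustered genes, 6 overlapped, 2 were lower in replicates 1 and 5 and 1 was higher. Over all genes, 24.4% were lower there and 22.4% higher. Rad21, a cohesin subunit, was higher in replicates 1 and 5 at 287.9 to 323.0 CPM, beside 231.9 to 283.5 CPM, and Smc3, another, overlapped at 207.0 to 242.6 and 205.8 to 380.6 CPM. The last list held giant and seven-pass cadherins and also the calsyntenins, Cdhr1 and Fjx1. Of its 12 kept genes, 9 were lower in replicates 1 and 5 and none higher, beside 24.4% and 22.4% of all genes. Clstn1 (calsyntenin, a synaptic cadherin) overlapped at 616.7 to 709.4 and 526.8 to 737.9 CPM, and Fat3 was lower, at 454.2 to 498.8 and 589.4 to 792.7 CPM.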

How the data were processed

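Ribosome-bound RNA of the left and right medial habenula was sequenced in 5 pull-down libraries per side. The authors deposited unnormalised read counts per gene, 1 file per library. STAR 2.0.0e, HTSeq and mm10 are named in the submitters' processing notes, with annotation, strand setting and filters not given in the sources used here. Of 32537 rows per file, 6 carry no gene name and were left out of totals and tests. They hold the reads outside genes (13.6% to 18.9%) and the ambiguous reads (2.25% to 2.81%), and a row named unknown with at most 4 reads.

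CPM was computed over the 32531 gene rows, without further scaling. Sides were compared in edgeR 4.0.16 (R 4.3.3) by its two-sided quasi-likelihood test, with robust dispersion, TMM factors and genes filtered by filterByExpr at 10 reads. Side was the sole factor, and p-values were adjusted by Benjamini and Hochberg's method over all genes, with 0.05 as the threshold. Standard errors and 95% intervals of fold changes come from that fit. Before use the fit was run on simulated libraries, drawn independently around a common mean per gene with side changes added to some genes. These libraries held no nearly alike replicates and no glial difference shared between genes, so that run does not bear on either. Coordinates are those of GENCODE M21 on GRCm38 (mm10), in which 82 of the 85 kept members matched 1 gene by symbol. A level per kb needed at least 200 unshared exonic bases. Promoters are from RefSeq.

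The members and gene lists were chosen with earlier results of these data known, and so was the split by replicates 1 and 5, which rests on markers that hold no member. Values in every library are given for the 3 most abundant members per kb of each subfamily, the 3 with the smallest p between the sides and the 5 with the largest ratio of highest to lowest library at a mean of at least 1 CPM; other members named in the text were chosen after their values were seen. Alternatives were other scalings and filters, DESeq2 1.42.0, limma 3.58.1 (voom with sample weights), a glial covariate, a replicate block, a threshold of 0.10, subsets of libraries and leaving out each library. Figures were drawn with matplotlib 3.10.9.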

Additional observations from a re-analysis of the deposited data

Results flagged for a closer look

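In 5 of 170 groups of 5 libraries (85 members on each side), 1 library stood far from the other 4 of its side. Chance flags about 1 in 20 groups of 5 independent, normally distributed values. The groups here hold the nearly alike replicates 1 and 5, so that rate need not hold for them. Cdh13 reached 51.4 CPM in right replicate 3, where the other right libraries held 28.4 to 33.9 CPM. Cdh26 reached 0.721 CPM in right replicate 2, where the others held 0.328 to 0.412 CPM. Cdh5 reached 2.65 CPM in right replicate 3, where the others held 0.149 to 0.847 CPM. Pcdhb14 reached 18.8 CPM in left replicate 4, where the others held 12.1 to 13.2 CPM. Pcdhb3 reached 6.23 CPM in right replicate 3, where the others held 3.80 to 4.30 CPM.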

How the results depend on the processing

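No alternative run on all 10 libraries called a member between the sides. Replicates 1 and 5 alone called 1992 genes, 18 members and 6 partner genes, where all libraries called 0, 0 and 0. Of 276 alternative values of the 12 named log2 fold changes, 237 kept their sign and 39 reversed it. The 237 include the threshold of 0.10, which leaves all 12 fold changes as they were and could not reverse any. In replicates 1 and 5 alone the reversed values were -0.0171 for Pcdhgb8, -0.0691 for Cdh8, -0.34 for Cdh13, -0.0123 for Pcdh9, -0.21 for Pcdh17, 0.0182 for Pcdh20, -0.28 for Pcdhac2 and -0.14 for Pcdhb17. With limma-voom and sample weights they were -0.13 for Cdh8, -0.24 for Cdh3 and 0.10 for Pcdhgc3, and in replicates 2 to 4 alone 0.0662 for Pcdhgc3. Leaving out 1 library at a time gave -0.0257 to 0.11 for Cdh8, -0.14 to 0.23 for Cdh13, -0.0297 to 0.20 for Cdh3, -0.13 to 0.20 for Pcdh9, -0.30 to 0.45 for Pcdh17, -0.13 to 0.0814 for Pcdh20, -0.0777 to 0.14 for Pcdhac2, -0.10 to 0.25 for Pcdhb17 and -0.20 to 0.042 for Pcdhgc3. It gave -0.87 to -0.44 for Cdh26, 0.17 to 0.67 for Pcdhgb8 and -0.32 to -0.15 for Cdh23, which kept their sign. The cause of these reversals was not tested. Limma-voom with sample weights placed 15 members at an unadjusted p under 0.05 (17.6%, beside 14.8% of all genes) and called 0; it put 75 members above 0, with a median of 0.394 beside -0.0118 over all genes, and Pcdhgb8 at 0.998. With the glial score as a covariate the median half-width of the members' intervals was 0.319, beside 0.739 without it. With this covariate edgeR placed 3 members at an unadjusted p under 0.05 (3.53%, beside 3.07% of all genes) and called 0. With the replicate block added it placed 4 there (4.71%, beside 3.14% of all genes) and called 0.

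The members lower in all of replicates 1 and 5 numbered 46 with TMM-scaled and 45 with median-of-ratios-scaled CPM, and 43 to 57 without 1 library at a time, a choice made after seeing the data. The members higher there numbered 2 to 4. Same-numbered libraries of the sides correlated in their deviations from the side means at 0.86, 0.0962, 0.806, 0.715 and 0.873. Left replicates 2 and 4 correlated best with right replicate 3, at 0.513 and 0.859. Because of the low value of replicate 2, the numbers were not taken to pair the libraries. Replicates 2 to 5 of both sides do share a sequencing lane by number, and replicate 1 does not. With the replicate number as a block edgeR called 0 genes and 0 members, and the members' median log2 fold change was 0.02. Over all exonic bases the levels per kb of Pcdhac2, Pcdhgc3 and Pcdhgb8 were 3.59, 4.78 and 0.306, beside 6.98, 14.4 and 0.566 over unshared bases. At 42488448 to 67942836 reads, counting noise weighs most on members near or under 1 CPM, such as Cdh26. Its part at higher levels was not tested.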
